A study of Mus musculus with 6 samples.

Results

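Müller glia span the whole thickness of the retina and keep its fluid in order. They take up glutamate and turn it into glutamine, buffer potassium, move water, handle lipids and recycle the retinoid of the cone visual cycle. A small set of transcription factors and Notch signalling hold their identity, and in an injured retina they become reactive. The genes described here are 33 genes of Müller glia identity and upkeep, chosen by name with earlier results of these data known. They were matched exactly to the gene symbols of the deposited tables. All 33 were found among the 24346 symbols listed, and all 33 passed the filter of a mean of at least 0.5 FPKM (fragments scaled to transcript length and library size), as did 14176 genes in all. They fall into 8 groups by role, from transcription factors to secreted proteins.

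RNA was taken from whole retina of Unc119+/+ mice (wild type, 3 libraries) and of Unc119-/- mice (knockout, 3 libraries). The sources used here do not give the age, strain, sex or knockout allele of the mice, nor whether each library came from a separate animal. UNC119 is a carrier of lipid-modified proteins in photoreceptors, and the title of the study links its loss to cone-rod dystrophy and inflammation. The comparison below asks how the Müller glia genes stood in the knockout retina.

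Unc119 itself averaged 1195 ± 10.1 FPKM over wild-type libraries and 473 ± 32.8 FPKM over knockout libraries (SD, n = 3 each), so transcript of the gene was still measured. How many fragments each value rests on is unknown. Relative to wild-type replicate 2, depth read from the commonest ratio between values under 0.3 FPKM was 0.763 to 0.964 in the other 5 libraries, a ratio shared by 27.8% to 30.6% of such genes. By Xist and genes of the Y chromosome, 2 wild-type libraries and 1 knockout library were male. These were wild-type replicates 1 and 2 and knockout replicate 1, so values within females include knockout replicate 3. Knockout replicate 3 stood apart: the 20 lens genes on a marker list summed to 12033 FPKM there, 2.99% of its total, against 0.75 to 840 FPKM in the other 5 libraries. Its 12 markers of ciliary body and iris summed to 89.2 FPKM against 16.6 to 20.5 FPKM elsewhere. All p-values reflect how these libraries varied, and some of that variation may be technical.

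The sequence upstream of 3 members is shown because it bears on the pathways that the members and the title of the study point to. Hes5 is a Notch target, Mfge8 was the member with the smallest p, and Slc1a3 was the member whose upstream sequence held a STAT motif. The sequences are from RefSeq promoters (GRCm38.p6, the same assembly as mm10), 5′ to 3′ on the strand of the gene. They end at the base before the RefSeq start site for Mfge8 and Slc1a3. That site of Slc1a3 lies upstream of the GENCODE M21 gene, which ends at 8710764. For Hes5, which starts at 154960923, the 153 bases next to the start site are left out. They were cut from the first base of an annotated exon that lies there, outside the span of Hes5. Capitals mark TGGGAA, the core motif of the Notch partner RBPJ (here on the opposite strand, read as TTCCCA), or TTCNNNGAA, the STAT motif.
Hes5, chr4:154960673-154960769, plus strand: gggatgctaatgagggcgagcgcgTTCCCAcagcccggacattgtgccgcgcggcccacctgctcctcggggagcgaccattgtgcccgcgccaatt
Mfge8, chr7:79149061-79149310, minus strand: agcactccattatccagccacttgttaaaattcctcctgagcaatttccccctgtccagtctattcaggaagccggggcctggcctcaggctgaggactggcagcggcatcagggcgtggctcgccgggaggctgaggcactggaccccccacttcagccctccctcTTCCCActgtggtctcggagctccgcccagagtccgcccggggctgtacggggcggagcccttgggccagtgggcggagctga
Slc1a3, chr15:8710808-8711057, minus strand: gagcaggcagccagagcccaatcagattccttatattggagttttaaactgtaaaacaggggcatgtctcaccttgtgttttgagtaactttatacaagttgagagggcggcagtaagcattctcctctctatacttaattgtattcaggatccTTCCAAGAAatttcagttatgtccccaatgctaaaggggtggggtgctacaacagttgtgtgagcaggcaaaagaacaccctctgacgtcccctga
Of the members, 23 had an entry in the promoter table. Within 250 bases upstream of a start site, TGGGAA on either strand was found for 7 of the 23 and in 21.6% of all 32851 promoters. TTCNNNGAA, which reads the same on both strands, was found for 1 of the 23 and in 7.02% of all promoters. A member was counted once if any of its promoters matched, while the percentages count single promoters, so these are unlike measures. A match describes the letters and is not a measured binding site.

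The 33 genes differed widely in level. In wild type, per length of transcript, Glul was the most abundant at 858 ± 31.6 FPKM (SD, n = 3), at a percentile of 99.8 among all genes tested. Glul encodes glutamine synthetase. Next came Slc6a6 at 333 FPKM, Apoe at 292 FPKM, Car2 at 274 FPKM, Clu at 253 FPKM, Dkk3 at 228 FPKM and Rlbp1 at 223 FPKM. The ranges of Slc6a6, Apoe and Car2 overlapped from neighbour to neighbour, as did those of Dkk3 and Rlbp1. In the middle of the order were Slc1a3 at 72.5 FPKM, Mlc1 at 36.1 FPKM, Aqp4 at 27.3 FPKM and Kcnj10 at 23.3 FPKM. The transcription factors Lhx2, Sox2, Sox8 and Sox9 lay between 12.9 and 3.92 FPKM, while Rax was higher at 48.1 FPKM. Lcat was lowest at 1.22 ± 0.714 FPKM. Of the 32 pairs of neighbours in this order, 17 had overlapping ranges over the wild-type libraries.

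**Figure D1:**
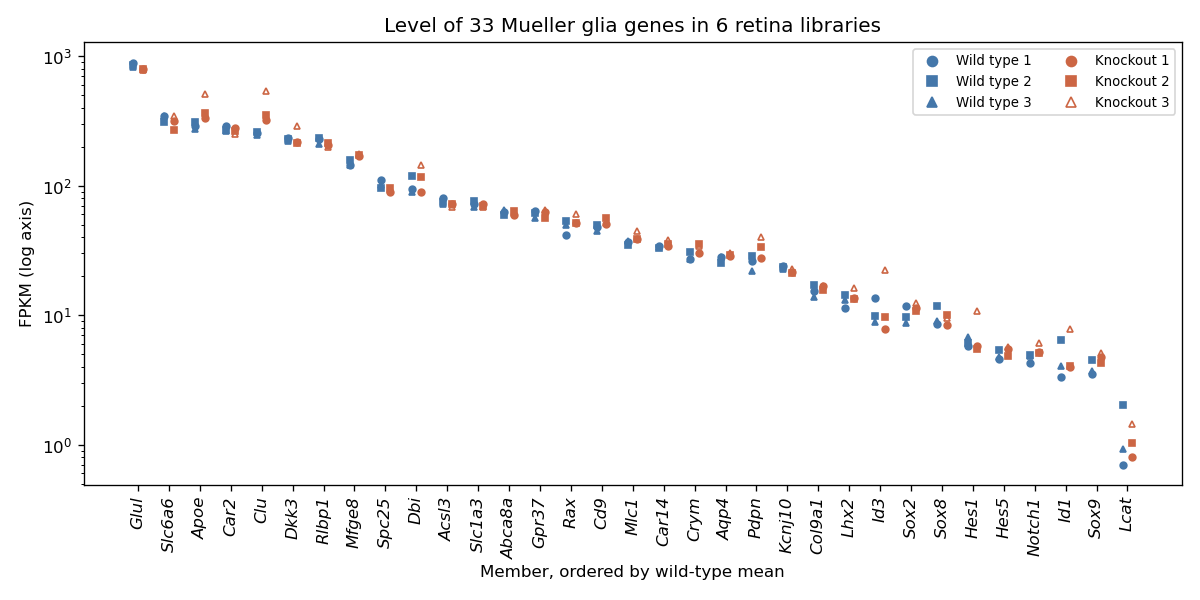
FPKM of each of the 33 members (log axis) in the 3 wild-type (blue) and 3 knockout (orange) libraries, ordered by wild-type mean. Levels run from 858 FPKM for Glul to 1.22 FPKM for Lcat, and the open triangle of knockout replicate 3 stands above the rest for Clu, Apoe, Id3 and Hes1.

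No member passed the test between the genotypes. With limma on log2(FPKM + 1), adjusted over all 14176 genes, 0 of the 33 passed upward and 0 downward at the 0.05 threshold, where 0.205% of all genes were called higher and 0.0282% lower. At an unadjusted p under 0.05 there were 7 members higher and 2 lower, and 5.19% and 3.81% of all genes. The values of the genotypes did not overlap for 7 members that were higher (7.83% of all genes) and 4 that were lower (8.04% of all genes). Without knockout replicate 3 these counts were 7 (11.9% of all genes) and 5 (12.5%). The median log2 change of the members was 0.10, against −0.0017 over all genes tested, and 22 of 33 were higher (49.3% of all genes). Without knockout replicate 3 the median was 0.024 and 17 were higher.

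The intervals bound how large a change these libraries leave room for. For 25 of the 33 members the 95% interval of the log2 change lay within 0.5 of 0, as it did for 80.7% of all genes. For 32 it lay within 1 of 0, that is within a 2-fold change on the scale of FPKM + 1 (96.4% of all genes), and the exception was Clu. Relative to the wild-type mean, the 33 members had medians of 0.03, 0.04 and 0.18 log2 units in knockout replicates 1, 2 and 3. In the wild-type libraries it was 0.01, 0.05 and −0.05. Knockout replicate 3 was the highest of the 6 libraries for 20 members, or 60.6%, where it was the highest for 21.1% of all genes tested. In whole retina a change in the number of Müller cells and a change in RNA per cell cannot be told apart, and several members are also made by other cells.

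**Figure D2:**
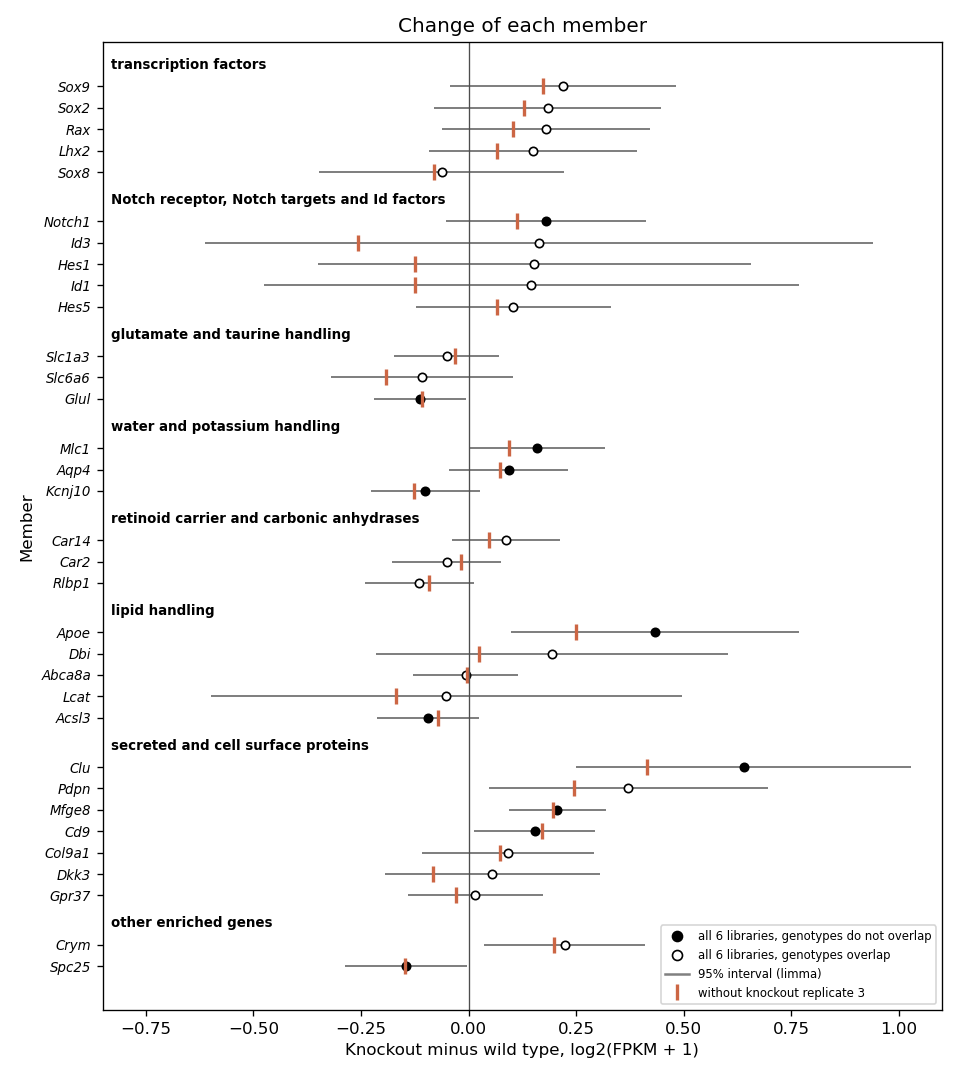
Log2 change of each member, knockout minus wild type on log2(FPKM + 1), by role, with limma's 95% interval (grey) and the value without knockout replicate 3 (orange tick). Filled points are the 11 members whose genotypes do not overlap. Clu at 0.64 and Apoe at 0.43 lie farthest to the right, and Spc25 at −0.15 farthest to the left.

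Among the secreted and surface proteins, 7 of 7 were higher in the knockout mean and none was called. Clu, which encodes the extracellular chaperone clusterin, showed the greatest difference of all members. It measured 255, 258 and 246 FPKM across wild-type replicates 1, 2 and 3, and 323, 352 and 539 FPKM across knockout replicates 1, 2 and 3. The knockout libraries all lay above the wild-type libraries, with knockout replicate 3 far above the other two. The means were 253 ± 6.11 and 405 ± 117 FPKM (SD, n = 3 each; log2 change 0.64, SE 0.17, limma adjusted p = 0.340, 95% interval 0.25 to 1.03). By exact permutation p was 0.1, as low as 3 against 3 libraries can give. Without knockout replicate 3 the log2 change was 0.41 (limma adjusted p = 0.0528), and in a fit that included lens level as a covariate, called the lens term here, it was 0.37 (limma adjusted p = 0.853). The wild-type libraries had lens sums from 0.75 to 840 FPKM and Clu values between 246 and 258 FPKM. None came near the lens sum of knockout replicate 3, and the part of lens RNA in the Clu values was not tested. Among males the log2 change was 0.33 and among females 0.82, where each sex has a single library in 1 genotype. Knockout replicate 3 is among the females. Clu (ENSMUSG00000022037.15) lies on chromosome 14 from 65968483 to 65981547, plus strand.

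Mfge8 encodes a bridging protein by which phagocytes take up cells and membranes that expose phosphatidylserine. It measured 144, 157 and 144 FPKM in wild type against 168, 172 and 174 FPKM in knockout retina. The knockout libraries were close to each other and all above wild type, and knockout replicate 3 did not stand out. The log2 change was 0.21 (SE 0.05, 95% interval 0.10 to 0.32), with an unadjusted p of 0.00273, the smallest of the members, and a limma adjusted p of 0.268. Without knockout replicate 3 it was 0.20, and within males and females 0.16 and 0.27. Mfge8 (ENSMUSG00000030605.15) lies on chromosome 7 from 79133768 to 79149060, minus strand.

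Cd9, a tetraspanin of the cell surface, measured 47.6, 49.8 and 44.7 FPKM in wild type against 50.8, 56.0 and 51.5 FPKM in knockout retina. All knockout values were above all wild-type values, by a narrow gap (log2 change 0.15, SE 0.06, limma adjusted p = 0.519). Pdpn encodes podoplanin, a membrane glycoprotein. Its values of 26.3, 28.7 and 22.0 FPKM in wild type overlapped those of 27.6, 33.6 and 39.8 FPKM in the knockout. The log2 change of Pdpn was 0.37 (95% interval 0.05 to 0.69, limma adjusted p = 0.507), 0.25 without knockout replicate 3 and 0.11 with the lens term. It was 0.0053 within males and 0.71 within females, who include knockout replicate 3. The WNT-related secreted protein Dkk3 was high in a single library, with 215, 215 and 287 FPKM in the knockout and 220 to 233 FPKM in wild type. Its log2 change was 0.05, and −0.08 without knockout replicate 3. The collagen gene Col9a1 (log2 change 0.09) and the receptor gene Gpr37 (0.02, and −0.03 without knockout replicate 3) overlapped between the genotypes.

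Among the lipid handling genes 2 of 5 were higher in the knockout mean and none was called. Apoe encodes apolipoprotein E, the main apolipoprotein of glia, which microglia also make. It measured 290, 311 and 274 FPKM in wild type against 331, 362 and 507 FPKM in knockout retina. The genotypes did not overlap, and knockout replicate 3 was again the highest. The log2 change was 0.43 (SE 0.14, 95% interval 0.10 to 0.77, limma adjusted p = 0.463). Leaving out knockout replicate 3 gave 0.25 (limma adjusted p = 0.463). The lens term gave 0.18 (limma adjusted p = 0.926). Within males it was 0.14 and within females, who include knockout replicate 3, it was 0.65. The 12 markers of microglia and macrophages, of which 11 were tested, summed to 24.9 to 31.3 FPKM in wild type against 47.6 to 55.2 FPKM in knockout retina, and their part in the value of Apoe was not tested. Apoe (ENSMUSG00000002985.16) lies on chromosome 7 from 19696109 to 19699188, minus strand.

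The other lipid genes differed by less. Acsl3, a ligase that activates long-chain fatty acids, measured 79.7, 74.2 and 72.7 FPKM in wild type against 71.6, 71.9 and 68.4 FPKM in knockout retina (log2 change −0.09, limma adjusted p = 0.614). Its genotypes did not overlap, but knockout replicate 2 lay just under wild-type replicate 3. Dbi, the acyl-CoA binding protein, spread widely within each genotype, at 93.9, 120 and 89.97 FPKM in wild type against 88.7, 117 and 146 FPKM in knockout retina. Its log2 change was 0.19, and 0.024 without knockout replicate 3. Abca8a, a transporter with a close paralog in Abca8b, was level at 61.9 ± 2.77 and 61.6 ± 2.27 FPKM (SD, n = 3 each), with a 95% interval of −0.13 to 0.11 on the log2 scale. The sources used here do not say how reads shared with Abca8b were counted. Lcat, which esterifies cholesterol on lipoproteins, was too low to bound closely, with an interval of −0.60 to 0.49 around a log2 change of −0.05, which was −0.17 without knockout replicate 3.

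The genes of glutamate and taurine handling were all lower in the knockout mean, 3 of 3, by small amounts. Glul measured 892, 849 and 831 FPKM across wild-type replicates 1, 2 and 3, and 801, 789 and 787 FPKM across knockout replicates 1, 2 and 3. Each knockout library was below each wild-type library, and the knockout libraries were the tighter group (SD 7.56 against 31.6 FPKM). The log2 change was −0.11 (SE 0.04, 95% interval −0.22 to −0.0092, limma adjusted p = 0.522, exact permutation p = 0.1). It was −0.11 without knockout replicate 3, −0.12 within males and −0.08 within females. Glul (ENSMUSG00000026473.15, chromosome 1, 153899944 to 153909723, plus strand) shares exon bases with Teddm2 on the opposite strand, and the sources used here do not give the strand setting. Slc1a3 encodes the glutamate transporter GLAST, which takes glutamate into Müller cells. It measured 72.7, 75.8 and 68.9 FPKM in wild type against 72.5, 69.2 and 68.0 FPKM in knockout retina, which overlap (log2 change −0.05, 95% interval −0.17 to 0.07, and −0.03 without knockout replicate 3). The taurine transporter gene Slc6a6 varied more, at 311 to 347 FPKM in wild type against 271 to 347 FPKM in knockout retina (log2 change −0.11, and −0.19 without knockout replicate 3).

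A list of 13 other genes of transmitter uptake and glutamine turnover had 7 higher and 6 lower means, none called, and a median of 0.01. Without knockout replicate 3 the median was −0.052 and 5 were higher. At an unadjusted limma p under 0.05, 0 were higher and 4 lower, against 5.19% and 3.81% of all genes. Slc38a1, a glutamine transporter, measured 53.5 ± 0.911 and 49.4 ± 1.28 FPKM (SD, n = 3 each), with a log2 change of −0.11 and a limma adjusted p of 0.519. The genotypes did not overlap for Slc38a1.

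The water and potassium genes are the partners of Müller end-feet, where they meet vessels and the vitreous. All 3 had genotypes that did not overlap (15.9% of all genes in either direction), 2 of them higher and 1 lower, and none was called. Kcnj10, the potassium channel Kir4.1, measured 23.9, 23.4 and 22.7 FPKM in wild type against 21.4, 21.1 and 22.6 FPKM in knockout retina (log2 change −0.10, 95% interval −0.22 to 0.02, limma adjusted p = 0.615). Mlc1, a membrane protein of glial end-feet, measured 36.5, 34.7 and 37.2 FPKM in wild type against 38.7, 38.5 and 44.4 FPKM in knockout retina. Its log2 change was 0.16 (limma adjusted p = 0.540), and 0.09 without knockout replicate 3. Aqp4, the water channel aquaporin 4, measured 28.3, 25.4 and 28.0 FPKM in wild type against 28.4, 28.9 and 30.0 FPKM in knockout retina. The nearest wild-type and knockout libraries of Aqp4 nearly touched, and its log2 change was 0.09 (95% interval −0.04 to 0.23, limma adjusted p = 0.667). The 13 tested genes of a list of other ion, water and pH handling genes had 9 higher and 4 lower means, none called. The 2 with the smallest p were Bsg (basigin, log2 change 0.17, limma adjusted p = 0.497) and Slc16a1 (the lactate transporter MCT1, log2 change −0.31, limma adjusted p = 0.522).

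**Figure D3:**
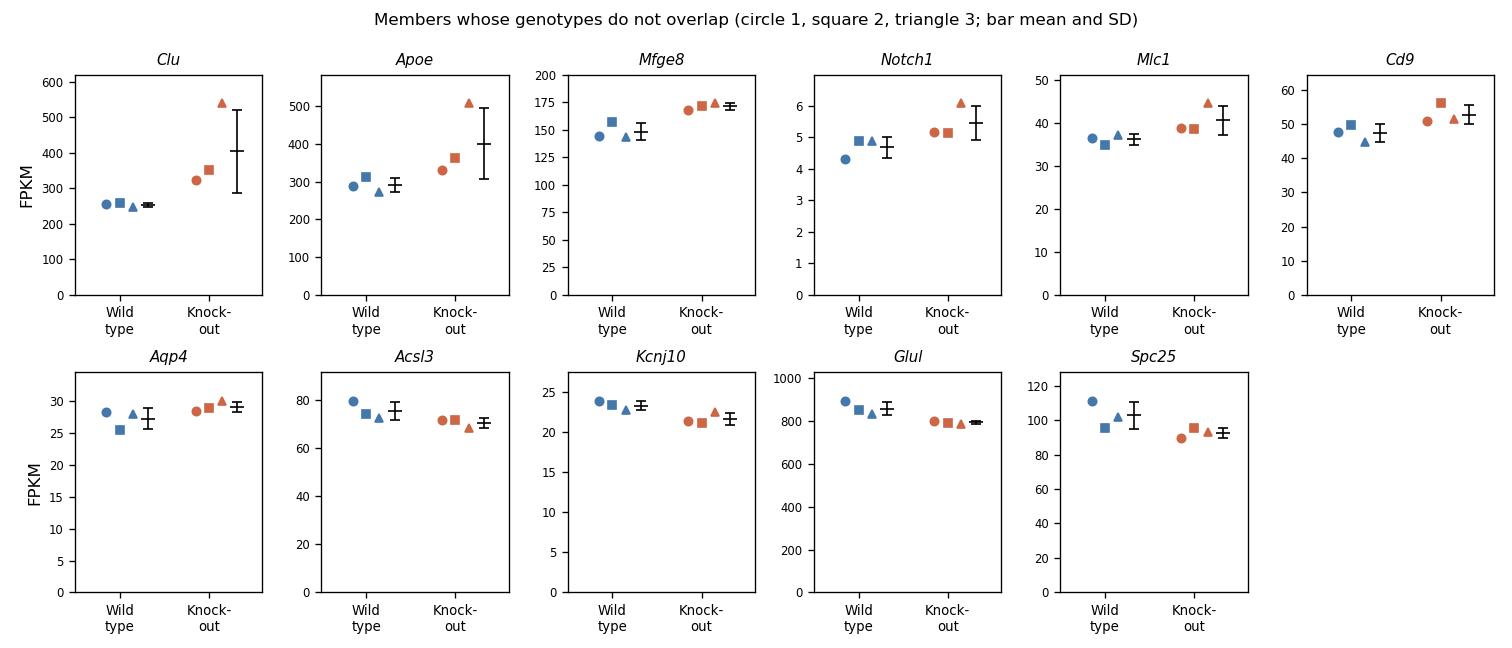
FPKM per library for the 11 members whose genotypes do not overlap, with mean and SD (n = 3) beside the points and the axis from 0. Clu (246 to 258 against 323 to 539 FPKM) and Apoe (274 to 311 against 331 to 507 FPKM) have the largest log2 changes of the 11. The gap between the nearest libraries of the genotypes is wide for Clu only.

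Rlbp1 and the carbonic anhydrases were close to level. Rlbp1 encodes CRALBP, which carries 11-cis retinoids in Müller glia and pigment epithelium. It measured 227, 233 and 208 FPKM in wild type against 205, 212 and 199 FPKM in knockout retina. The groups overlapped through wild-type replicate 3, and the log2 change was −0.11 (95% interval −0.24 to 0.01, limma adjusted p = 0.576). Car2, the cytosolic carbonic anhydrase and the most abundant of the 3, measured 290, 270 and 264 FPKM in wild type against 276, 266 and 252 FPKM in knockout retina, which overlap (log2 change −0.05, SE 0.05, limma adjusted p = 0.792, and −0.02 without knockout replicate 3). Car14, a membrane form, was 33.6 ± 0.837 and 35.8 ± 1.78 FPKM (SD, n = 3 each) with a log2 change of 0.09, and 0.05 without knockout replicate 3. Exons of Car14 overlap those of Aph1a on the opposite strand.

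The transcription factors had 4 of 5 means higher in the knockout, none called, and none separated the genotypes. Rax, a homeobox factor of the early eye field, was the most abundant at 41.3, 53.7 and 49.2 FPKM in wild type against 51.8, 51.0 and 60.6 FPKM in knockout retina (log2 change 0.18, SE 0.10, limma adjusted p = 0.640). The log2 change of Rax was 0.10 without knockout replicate 3. Sox9, an SRY-box factor that marks Müller nuclei, measured 3.51, 4.51 and 3.73 FPKM in wild type against 4.79, 4.27 and 5.08 FPKM in knockout retina (log2 change 0.22, 95% interval −0.04 to 0.48). Knockout replicate 2 lay under wild-type replicate 2, so the groups overlapped. Sox2, which some amacrine cells also express, overlapped too (log2 change 0.18, and 0.13 without knockout replicate 3). So did Lhx2, a LIM homeobox factor of Müller glia (log2 change 0.15, and 0.07 without knockout replicate 3). Sox8 was the exception at −0.06, and its exons overlap 2810468N07Rik on the opposite strand. For all 5 the 95% interval lay within 0.5 of 0. The median log2 change of the group was 0.18, and 0.10 without knockout replicate 3. Knockout replicates 1, 2 and 3 had group medians of 0.11, 0.09 and 0.31 log2 units above the mean of wild type, whose own libraries had −0.16, 0.16 and −0.05. A list of 11 tested partner and gliogenic factors had 8 higher and 3 lower means, none called. Its 2 genes with the smallest p were Nfix (10.4 ± 0.102 and 12.5 ± 1.73 FPKM, log2 change 0.23, limma adjusted p = 0.549) and Six3 (log2 change 0.13, limma adjusted p = 0.619).

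The Notch receptor, its Hes targets and the Id factors had 5 of 5 means higher, but for 3 of them this rested on knockout replicate 3. Notch1 encodes the receptor that keeps Müller glia in their state. It measured 4.30, 4.89 and 4.88 FPKM in wild type against 5.16, 5.12 and 6.08 FPKM in knockout retina, without overlap (log2 change 0.18, SE 0.10, limma adjusted p = 0.632, and 0.11 without knockout replicate 3). Hes5, a repressor that Notch switches on, measured 4.57, 5.35 and 4.77 FPKM in wild type against 5.47, 4.87 and 5.67 FPKM in knockout retina, which overlap. Its log2 change was 0.10 (95% interval −0.12 to 0.33), and 0.07 without knockout replicate 3.

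Hes1, a further Notch target that other signals also switch on, measured 5.74, 6.08 and 6.81 FPKM in wild type against 5.75, 5.46 and 10.8 FPKM in knockout retina. Knockout replicates 1 and 2 were thus within or under the wild-type range, and replicate 3 was far above it. Id3, a dominant-negative partner of bHLH factors that BMP signals induce and the most abundant of these 5 genes, showed the same pattern. It measured 13.5, 9.78 and 8.85 FPKM in wild type against 7.79, 9.61 and 22.2 FPKM in knockout retina (log2 change 0.16, SE 0.33, limma adjusted p = 0.903). Id1, of the same family, measured 3.34, 6.46 and 4.01 FPKM in wild type against 3.999, 4.02 and 7.76 FPKM in knockout retina. Without knockout replicate 3 the log2 changes turned to −0.12 for Hes1, −0.26 for Id3 and −0.12 for Id1. This library also had the highest lens and ciliary body sums, and their part in these values was not tested.

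**Figure D4:**
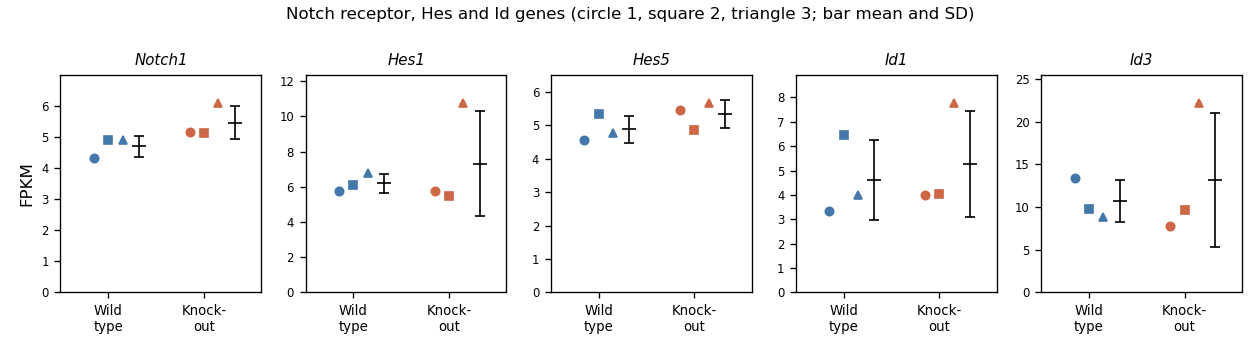
FPKM per library for Notch1, Hes1, Hes5, Id1 and Id3, with mean and SD (n = 3) beside the points and the axis from 0. The triangle of knockout replicate 3 stands alone for Hes1 at 10.8 FPKM and Id3 at 22.2 FPKM, while Hes5 stays between 4.57 and 5.67 FPKM in all 6 libraries.

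Of 28 other tested genes of the Notch pathway, a list of ligands, receptors, proteases and targets, 16 were higher and 12 lower, none called, with a median of 0.04. Hey1, another Notch target, measured 5.05, 5.84 and 5.33 FPKM in wild type against 6.31, 6.47 and 6.70 FPKM in knockout retina, without overlap (log2 change 0.23, limma adjusted p = 0.499). Lfng, a glycosyltransferase that tunes the receptor, overlapped (log2 change 0.45, limma adjusted p = 0.519). Of 16 tested genes of the BMP and Id pathway, 10 were higher and 6 lower, none called, with a median of 0.03. The 2 with the smallest p were Bambi (log2 change 0.23, limma adjusted p = 0.640) and Bmpr2 (log2 change −0.08, limma adjusted p = 0.722).

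The last pair are genes enriched in mouse Müller glia whose role there is less clear. Spc25, a kinetochore subunit in dividing cells, measured 111, 95.6 and 102 FPKM in wild type against 89.7, 95.3 and 92.9 FPKM in knockout retina (log2 change −0.15, SE 0.06, limma adjusted p = 0.536). Its genotypes did not overlap, with wild-type and knockout replicate 2 nearly equal. Crym, a thyroid hormone binding protein, measured 26.9, 30.8 and 27.3 FPKM in wild type against 30.0, 35.4 and 34.4 FPKM in knockout retina, which overlap (log2 change 0.22, 95% interval 0.04 to 0.41, limma adjusted p = 0.499).

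**Figure D5:**
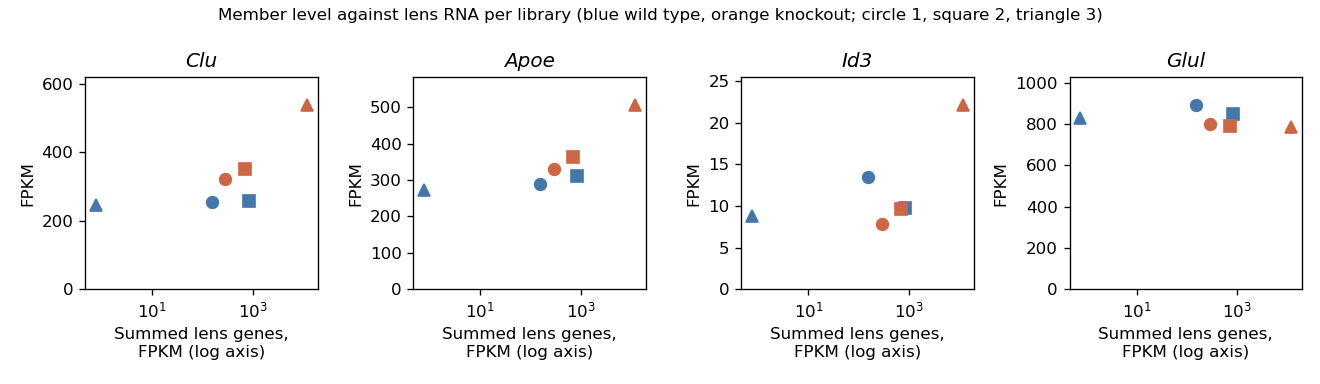
FPKM of Clu, Apoe, Id3 and Glul in each library against the summed FPKM of 20 lens genes (log axis), wild type in blue and knockout in orange. Knockout replicate 3, at a lens sum of 12033 FPKM, has the highest Clu, Apoe and Id3, while knockout replicates 1 and 2 lie above wild type for Clu and Apoe at lens sums of 288 and 708 FPKM.

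Other lists set the members in context. Of 21 tested Müller glia genes that are not members, 19 were higher and 2 lower, none called, with a median log2 change of 0.12, and 0.035 without knockout replicate 3. The 2 with the smallest p were Cd44, a hyaluronan receptor, at 7.52 ± 0.349 and 9.26 ± 0.0572 FPKM (log2 change 0.27, limma adjusted p = 0.341), and Cp, the copper protein ceruloplasmin, at 47.5 ± 1.08 and 65.6 ± 14.7 FPKM (log2 change 0.44, limma adjusted p = 0.436; SD, n = 3 each). Cd44, Cp and Vim are also on the list of reactive gliosis that follows, so the lists are not separate. Of 22 tested genes of reactive gliosis 5 rose by limma, where 0.205% of all genes did: Edn2, Gfap, Fgf2, Serpina3n and Cebpd. This list was chosen with earlier results of these data known, so the count beside that share is no independent test. With the lens term 1 of the 22 was called, and 21 had a log2 change above 0 (median 0.43, against 0.67 without the term). Over all genes that fit called 5 higher, where the fit without the term called 29. Gfap, the filament of reactive Müller glia and astrocytes, measured 8.63, 7.35 and 7.91 FPKM in wild type against 15.3, 15.8 and 17.1 FPKM in knockout retina (log2 change 0.93, 95% interval 0.75 to 1.12, limma adjusted p = 0.0045, and 0.0619 with the lens term). Calls of Fgf2, Serpina3n and Cebpd were lost in 3, 6 and 12 of the 16 alternatives. Whether these genes changed by more than the members was not tested as a difference. Of 21 tested genes of lipid transport and cholesterol, 8 were higher and 13 lower, none called. Abca1, which exports cholesterol to lipoproteins, measured 7.98, 8.43 and 8.47 FPKM in wild type against 6.52, 6.26 and 6.11 FPKM in knockout retina without overlap (log2 change −0.35, limma adjusted p = 0.223).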

How the data were processed

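Per the submitters' processing notes, the tools were TopHat2 2.1.1 and Cuffdiff 2.2.1 and the genome build mm10. The authors deposited 1 table of FPKM per gene symbol for each library, and the sources used here do not give the annotation, strand setting or scaling between libraries. FPKM are not counts, so depth is unknown and low genes are less precise. Median-of-ratios factors were all close to 1.001.

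Genes with a mean of at least 0.5 FPKM were tested on log2(FPKM + 1) with limma 3.58.1 (R 4.3.3), a scale that understates changes of low genes. The prior variance was a trend on mean level. Tests were two-sided, and p-values were adjusted by Benjamini-Hochberg over all 14176 genes with a threshold of 0.05. The code was tested on simulated data. Joins and plots used Python 3.11.15. Gene positions are from GENCODE M21.

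The members and gene lists were chosen with earlier results of these data known. Described in full were the most abundant member of each role and each member whose genotypes did not overlap, and from other lists the genes called or, with none called, the 2 with the smallest p, except genes not reported here. Motifs, promoters and other members given in full were chosen after values were seen. Alternatives were another pseudocount (0.1), no filter, a filter of 5 FPKM, 2 other scalings, library weights, a constant prior variance, a replicate block, a sex term, a lens term and leaving out each library.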

Additional observations from a re-analysis of the deposited data

Results flagged for a closer look

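For 3 of the 33 members every male knockout library moved one way from the male wild-type libraries and every female knockout library the other way, as was so for 17.5% of all genes tested. The log2 change in females minus that in males was 1.18 for Id3 (0.67 in females, −0.51 in males), 0.79 for Dbi (0.53 and −0.25) and 0.33 for Sox8 (0.09 and −0.24). These differences were not tested, and each sex had a single library in 1 genotype. The female libraries were wild-type replicate 3 and knockout replicates 2 and 3. For Id3 they measured 8.85 FPKM against 9.61 and 22.2 FPKM, so most of its female change lay in knockout replicate 3. Sex and the lens RNA of that library cannot be told apart here.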

How the results depend on the processing

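No member was called in any of the 525 fits of a member over 16 alternatives, and the smallest adjusted p was 0.0528, for Clu without knockout replicate 3. With the filter of 5 FPKM 3 members could not be fitted. The number of all genes called higher, 29 in the fit reported, was 17 with a constant prior variance, 13 with the replicate block, 17 with a sex term and 5 with the lens term. It ran from 9 to 24 when single libraries were left out. The number called lower, 4, was 2 with no filter, the replicate block, the sex term or the lens term, 6 with the filter of 5 FPKM, and 2 to 4 without single libraries. The replicate block is a hint at most, since same-numbered libraries did not deviate together (correlations of their deviations 0.072, −0.0902 and −0.119). Each replicate number is present in both genotypes, so this block leaves every log2 change as it was and could turn no member. The median change of the members was 0.024 to 0.14 without single libraries (0.024 without knockout replicate 3) and −0.0026 with the lens term. With the lens term the log2 change had the other sign for Abca8a (0.024), Col9a1 (−0.0026), Dbi (−0.13), Dkk3 (−0.11), Gpr37 (−0.054), Hes1 (−0.093), Id1 (−0.29) and Id3 (−0.35), and with quantile normalization for Abca8a (0.0083). Without single libraries it ran from −0.12 to 0.37 for Id1, −0.22 to 0.20 for Lcat, −0.14 to 0.065 for Sox8, −0.041 to 0.022 for Abca8a, −0.029 to 0.074 for Gpr37, −0.084 to 0.12 for Dkk3, −0.12 to 0.31 for Hes1 and −0.26 to 0.44 for Id3. The cause of these turns was not tested. In all, 503 of the 525 fits kept the direction, those of Clu, Apoe, Mfge8 and Glul among them. Many of these fits could not turn. Changes of filter, the constant prior variance and the replicate block leave each log2 change as it was, and median-of-ratios scaling barely moves it.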

Other observations

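Marker lists of other cells differed in how far they moved. The 11 tested markers of microglia and macrophages were all higher in the knockout, with a median log2 change of 0.57 and C1qc called (3.09 ± 0.413 and 7.62 ± 1.57 FPKM, SD, n = 3 each, limma adjusted p = 0.0423), a call lost in 11 of 16 alternatives. Without knockout replicate 3 the median was 0.60. The 10 rod markers had a median of 0.0012 and summed to 26361 to 28520 FPKM in wild type and 27170 to 28573 FPKM in the knockout. The 10 markers of bipolar and amacrine cells had a median of −0.05, and the 9 tested of vessels 0.04. The 5 tested markers of optic nerve glia had a median of 0.12, with Olig1 and Olig2 at 0 in all 6 libraries. The 11 tested pigment epithelium markers had a median of 0.26, and −0.0013 without knockout replicate 3. The 8 tested ciliary body markers went from 0.59 to 0.033 without that library, and the 20 lens genes from 2.41 to 1.502.

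Over the 33 members the median log2 change was −0.00085 within males (2 wild-type libraries, 1 knockout) and 0.16 within females (1 and 2), with the same sign in both sexes for 25 members. The female knockout libraries included replicate 3, with a member median of 0.18 against 0.04 in the other female one, replicate 2. Sex and that library cannot be told apart here.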
